A study of Drosophila melanogaster with 32 samples.

Results

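The genes described here are 10 members and partners of the Drosophila Wnt pathway: arr, dsh, Axn, sgg, arm, pan, lgs, gro, CtBP and hipk. They were taken by name from the gene column of the lists of RNA-edited sites. CtBP, hipk and Axn were chosen by a measured value, their large number of listed sites with Hrp48 HyperTRIBE, so these numbers are a description and no finding. Of the 10 genes, 9 had at least 1 listed site, and together they held 232 of the 33835 different sites and 9 of the 5181 gene names in all lists. No line carried the name arr, the gene of the Wnt co-receptor of the LRP5/6 type. Editing was measured in poly(A) RNA of S2 cells, a Drosophila cell line with hemocyte-like features, transfected transiently and sorted by fluorescence after copper sulfate had induced the construct.

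In TRIBE an RNA-binding protein carries the deaminating part of the enzyme ADAR, so that adenosines of bound transcripts become inosines, which are read as guanosines. The libraries used, 7 of the 32 samples of the series, form 4 groups. Hrp48 TRIBE (2 libraries) carried the hnRNP protein Hrp48 with the unchanged domain. Hrp48 HyperTRIBE (2 libraries) carried Hrp48 with the E488Q domain, a change reported to raise the efficiency of editing. The E488Q domain without an RNA-binding protein, called deaminase alone below (2 libraries), and FMRP HyperTRIBE (1 library), in which the translational regulator FMRP takes the place of Hrp48, completed the set. All were pools of transiently transfected cells, and the labels name no deletion of the cells' own Hrp48 or FMRP genes. They do not say whether replicates came from different cultures, and their spread may therefore be technical.

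In the canonical Wnt pathway, a scaffold protein, Axin, holds kinases and beta-catenin together so that beta-catenin is phosphorylated and destroyed. A Wnt ligand bound to Frizzled and its co-receptor recruits Dishevelled and Axin to the membrane, and beta-catenin then accumulates and enters the nucleus. There it joins the TCF protein Pangolin, which represses target genes together with co-repressors such as Groucho as long as beta-catenin is absent.

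Positions are given in the dm3 build; arm and lgs are on the minus strand and the others on the plus strand. The lists hold only sites with at least 20 reads and 10% edited reads, the lowest values seen in any of them, and why a site is absent, for want of reads or of editing, cannot be told from them. The libraries listed 1252 and 1400 sites with Hrp48 TRIBE, 19706 and 22803 with Hrp48 HyperTRIBE, 13 and 459 with the deaminase alone, and 4694 with FMRP HyperTRIBE, at median depths of 27 to 37 reads per listed site. Of 14 hemocyte marker genes 9 had a site in some library, with Hml, NimC1, Pxn, He and Sr-CI absent from every list. Of 6 neuronal markers only brp was listed, with 1 site in Hrp48 HyperTRIBE replicate 2. Since RNA came from pools of cells, weak editing in all cells and strong editing in a few cannot be told apart.

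Editing of the Wnt genes was concentrated in the Hrp48 HyperTRIBE libraries, where they held 157 and 155 sites. The Hrp48 TRIBE libraries listed 3 and 6 of their sites, the FMRP library 14, and neither deaminase-alone library listed any. The mean was 156 ± 1.41 (SD, n = 2) with HyperTRIBE and 4.5 ± 2.12 (SD, n = 2) with TRIBE, a 34.7-fold difference, and over all genes the mean number of sites differed 16.03-fold. Replicates 1 of both constructs share a library set in the file headers, as do replicates 2, and the ratio was 52.3 in the first set and 25.8 in the other. These numbers took part in the choice of the genes and were not tested.

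**Figure D1:**
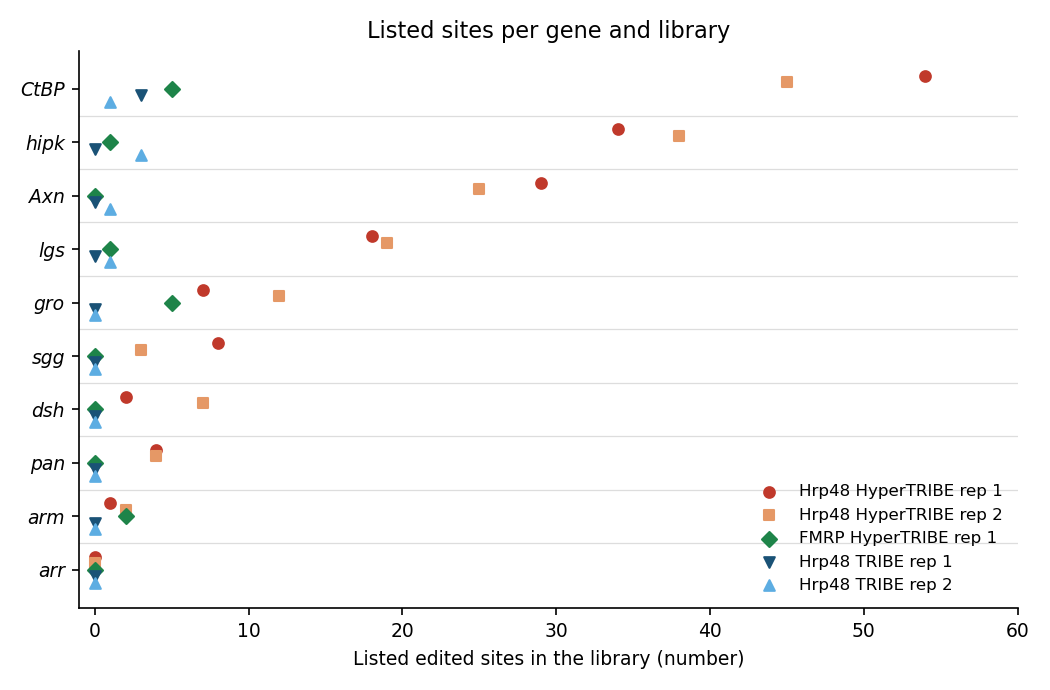
Number of listed edited sites (x axis) for each of the 10 genes (y axis) in the 5 libraries that list any of them; each symbol is 1 library, and deaminase alone, with no listed site in these genes, is not drawn. CtBP, hipk, Axn and lgs have the highest numbers in both Hrp48 HyperTRIBE libraries, 18 or more, while arr has 0 throughout.

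Beside CtBP, hipk, Axn and lgs, the gene dsh had few sites, as had sgg, arm and pan. By number of sites over all genes, dsh had rank 2398 and 986 in Hrp48 HyperTRIBE replicates 1 and 2, of 4036 and 4759 genes. The ranks were 685 and 2247 for sgg, 3097 and 2829 for arm, and 1518 and 1781 for pan. Genes with equal numbers share a rank. Dishevelled, encoded by dsh (X), relays the signal from Frizzled, and its gene held 2 and 7 sites in Hrp48 HyperTRIBE replicates 1 and 2 and none in the other libraries. Of its sites, 6 of 7 lay within 577 bases (X, 11251518 to 11252094). The highest mean was at X, 11252055, with 3 of 23 and 9 of 35 reads edited, or 13.04% and 25.7%. At X, 11251962, 4 of 30 and 7 of 35 reads were edited (13.3% and 20%). Replicate 2 was the higher library at both shared sites.

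The scaffold and a kinase of the destruction complex are both in the list. Axn (3R), the gene of Axin, held 29 and 25 sites in the Hrp48 HyperTRIBE libraries, 0 and 1 in those of Hrp48 TRIBE, and 0 in that of FMRP. The gene sgg (X), encoding the GSK3 kinase Shaggy, held 8 and 3 with Hrp48 HyperTRIBE and none elsewhere, and none of its 11 sites was in both libraries. The values of sgg were also low, between 10% and 19.05%. One of them (X, 2569375, 2 of 20 reads) lies in the overlapping noncoding gene CR45197 as well, so its gene cannot be told from these files.

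Axn carried the most strongly edited sites of the 10 genes. At 3R, 25860114, 15 of 22 reads were edited in Hrp48 HyperTRIBE replicate 1 and 21 of 28 in replicate 2, that is 68.2% and 75%, with a mean of 71.6% ± 4.82 (SD, n = 2). Hrp48 TRIBE replicate 2 listed the same adenosine at 45% (9 of 20 reads, Wilson 95% interval 25.8 to 65.8%), below both. The neighbouring site at 25860152 stood at 67.9% and 50% (58.9% ± 12.6, SD, n = 2). A further site, at 25860362, was at 55.2% and 52.2%. These 3 sites and 1 of CtBP were the 4 of the 85 reproducible sites of the list with 50% or more in both libraries (4.71%), where over all reproducible sites 208 of 10851 reached it (1.92%).

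Axn sites were gathered toward the downstream end of the stretch in which the gene had sites. Of its 39 Hrp48 HyperTRIBE sites, 29 formed a run of 2361 bases (3R, 25858532 to 25860892) in which no gap exceeded 500 bases, and this run held 14 of the 15 sites listed in both libraries. The remaining 10 lay upstream, 4 of them between 25848674 and 25849199. Its reads were few, with a median of 24 in replicate 1 and 28 in replicate 2, near the listing minimum. A site at 25860616 with 13 of 23 reads edited in replicate 2 (56.5%) was absent from the list of replicate 1. The nearest sites listed in replicate 1 had 20 reads each upstream, at 25860566 to 25860569. Downstream, at 25860730 and 25860754, they had 25 reads each.

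The gene of beta-catenin itself was listed at few positions, and these were read deeply. Armadillo, encoded by arm (X), was listed at 1 and 2 sites in the Hrp48 HyperTRIBE libraries and at 2 in that of FMRP HyperTRIBE, on 95 to 106 reads each. At X, 1785911, 16 of 104 and 29 of 106 reads were edited with Hrp48 HyperTRIBE (15.4% and 27.4%) and 25 of 105 with FMRP HyperTRIBE (23.8%, Wilson 95% interval 16.7 to 32.8%), which lies between the Hrp48 values. The second site, X, 1789043, was at 11.8% in Hrp48 HyperTRIBE replicate 2 and 12.6% with FMRP. The 3 libraries thus overlapped at arm, and no Hrp48 TRIBE library listed it.

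In the nucleus, the DNA-binding protein and its coactivator adaptor differed in their numbers of sites. Pangolin, encoded by pan (chromosome 4), held 4 and 4 sites with Hrp48 HyperTRIBE, on 20 to 30 reads, and no site was shared between the libraries. Its highest value was 30% (6 of 20 reads at position 128288, replicate 2). Legless, encoded by lgs (chromosome 4), is the BCL9 homologue that links Armadillo to Pygopus, and its gene held 18 and 19 sites, of which 9 were shared. Of its 28 sites, 23 lay in a run of 1945 bases (4, 457830 to 459774). Its most edited shared sites were at 458246, with 28.6% and 20% (24.3% ± 6.06, SD, n = 2), and at 460672, with 25% and 17.4% (21.2% ± 5.38).

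Groucho and CtBP are co-repressors, and both genes had tightly packed sites. Groucho, encoded by gro (3R), had 7 and 12 sites in the Hrp48 HyperTRIBE libraries and 5 in that of FMRP HyperTRIBE. Of its 15 Hrp48 sites, 8 fell within 85 bases (3R, 21874299 to 21874383). The highest there, at 21874373, was at 55% (11 of 20 reads) and 28.1% (9 of 32) with Hrp48 HyperTRIBE and at 17.9% (5 of 28) with FMRP HyperTRIBE. At 21874360 the values were 20%, 30% and 13.8% in the same order. FMRP was the lowest library at both positions.

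CtBP (3R), which encodes the C-terminal binding protein, had 54 and 45 sites in the Hrp48 HyperTRIBE libraries, 3 and 1 in those of Hrp48 TRIBE and 5 in that of FMRP HyperTRIBE. Its rank by number of sites was 3 in each Hrp48 HyperTRIBE library, of 4036 and 4759 genes. Most of its 73 sites lay in a pair of stretches. Between 8847670 and 8849134 lay 33 sites, 9 of them in both libraries, at median values of 14.6% and 14.8%. Between 8850599 and 8851892 lay 21 sites, 12 of them in both libraries, on a median of 60 and 76.5 reads. The second stretch held the strongest sites. At 8851739, 28 of 56 and 35 of 64 reads were edited (50% and 54.7%, mean 52.3% ± 3.31, SD, n = 2), and at 8851713 the values were 47.5% and 41.9% (44.7% ± 3.90).

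CtBP also had sites marked as intronic, which no other gene of the 10 had. There were 8 of 54 in Hrp48 HyperTRIBE replicate 1 (14.8%, Wilson 95% interval 7.70 to 26.6%) and 9 of 45 in replicate 2 (20%, 10.9 to 33.8%). Over all genes 0.579% and 0.697% of the sites were intronic. By number of intronic sites per gene, CtBP had rank 10 in replicate 1 and 12 in replicate 2. The 14 different intronic sites lay upstream of every exonic one, between 3R, 8838657 and 8844006, and 3 were in both libraries. Their median depth was 29 reads in each library, against 44.5 and 43.5 at the exonic sites. Only a pair of neighbouring sites was as deep as the exonic medians. At 8842428, 9 of 75 and 14 of 78 reads were edited (12% and 17.9%). At 8842454, listed in replicate 2 only, 10 of 89 were (11.2%). The mark comes from the gene models used by the authors, and whether these positions belong to an exon of another model was not tested.

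Homeodomain-interacting protein kinase, encoded by hipk (3L), is a nuclear kinase known in Drosophila to promote Armadillo activity. In its gene the Hrp48 HyperTRIBE libraries listed 34 and 38 sites, the Hrp48 TRIBE libraries 0 and 3, and the FMRP library 1. A run of 2537 bases (3L, 575129 to 577665) held 31 of its 44 sites and 24 of the 28 shared ones. With 28 shared sites hipk had rank 3 of the 3220 genes that had any, ahead of CtBP with 26 (rank 7), Axn with 15 (rank 41) and lgs with 9 (rank 195). The top shared sites of hipk were at 575754, with 47.9% and 36.7% (42.3% ± 7.91, SD, n = 2), and at 576378, with 34.9% and 38.7% (36.8% ± 2.71).

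**Figure D2:**
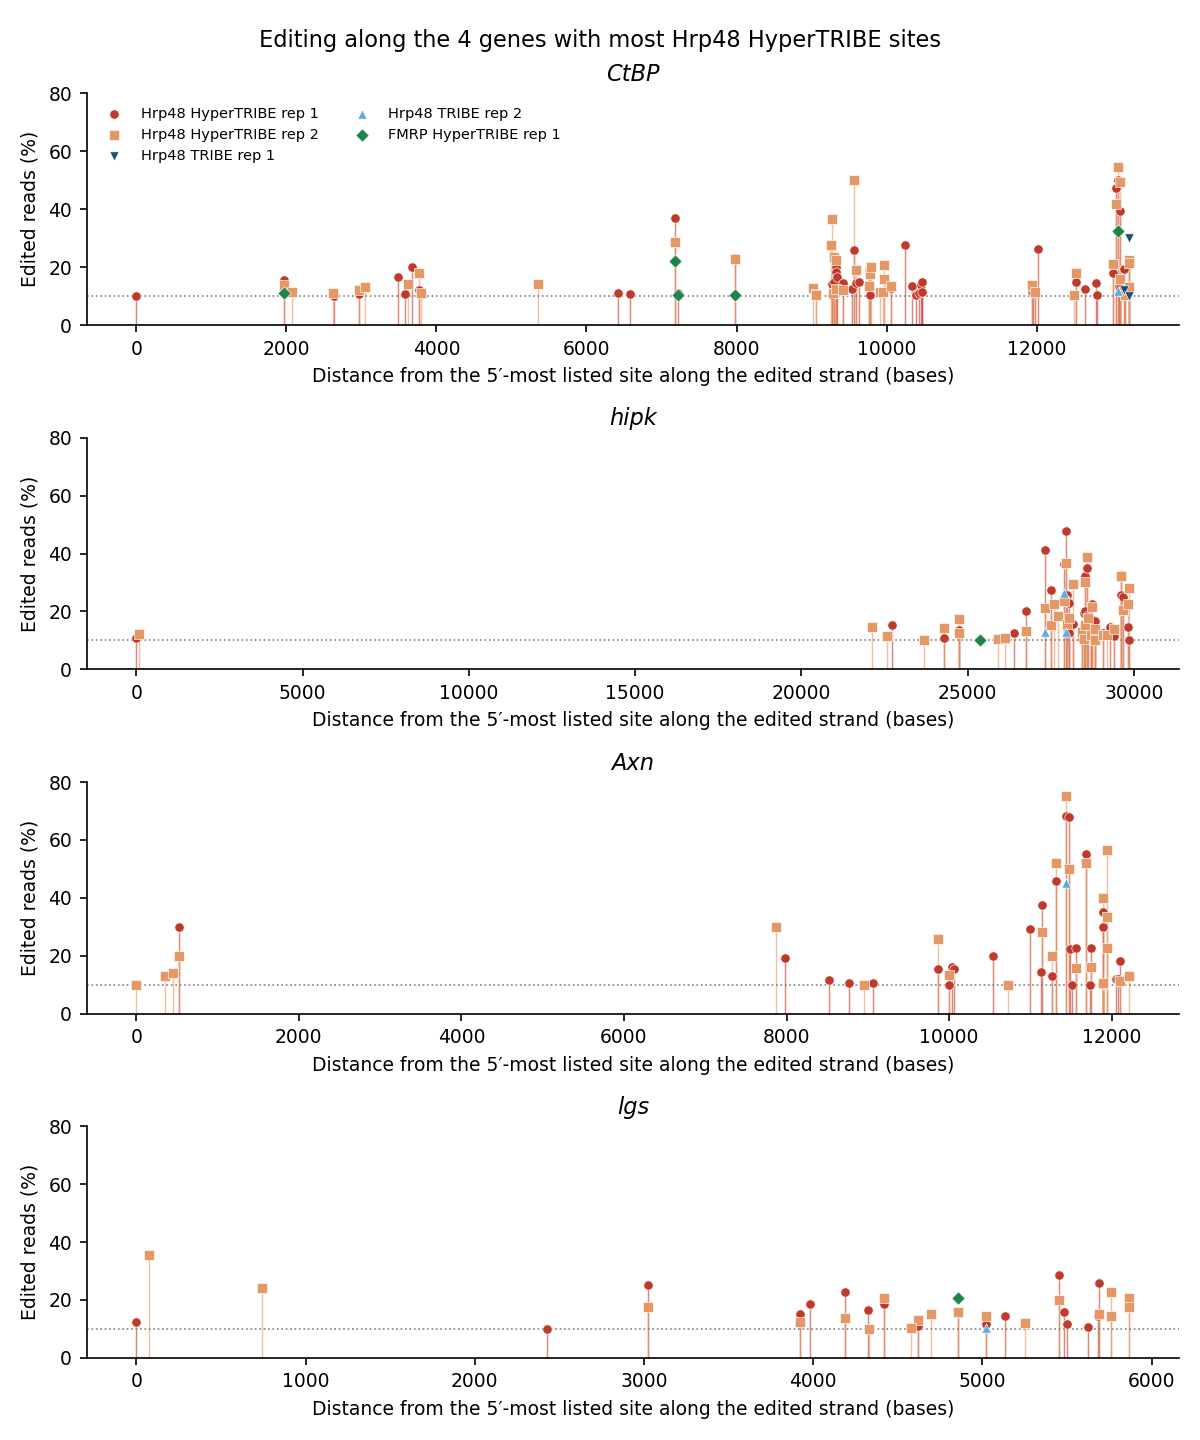
Percent of edited reads (y axis) at each listed site against the distance in bases from the most upstream listed site along the edited strand (x axis) for CtBP, hipk, Axn and lgs; symbols are libraries, and the dotted line is the 10% minimum of the lists. Runs of 31 hipk sites and 29 Axn sites stand at the downstream end, and the Axn site at 68.2% and 75% is the highest.

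Depth is known only at sites that passed the listing minimum, so whether the number of sites in a gene follows depth was not tested. The median reads in Hrp48 HyperTRIBE replicates 1 and 2 were 104 and 104 for arm, 40.5 and 40 for CtBP, 40 and 34 for hipk, 24 and 28 for Axn, and 26 and 29 for lgs. They were 33 and 29 for sgg, 26.5 and 34 for dsh, 26 and 20 for pan, and 22 and 34 for gro. The highest medians, those of arm, went with the fewest sites of the 9 genes. In replicate 1 the next highest, those of CtBP and hipk, went with the most sites. Axn, at lower medians, had 29 and 25 sites. With a minimum of 50 reads the lists kept sites of CtBP (mean 18.5 per library) and arm (1.5) and of no other gene of the 10.

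Of the 227 sites of these genes in either Hrp48 HyperTRIBE library, 85 were in both (37.4%, Wilson 95% interval 31.4 to 43.9%). Over all genes 34.3% of 31658 sites were, so in this share the Wnt genes lay near the background. The 85 lay in 7 of the 9 genes with a listed site, and 62.2% of the 5181 listed genes had a site in both. By gene the share was 63.6% for hipk (28 of 44, 48.9 to 76.2%), 38.5% for Axn (15 of 39, 24.9 to 54.1%), 35.6% for CtBP (26 of 73, 25.6 to 47.1%) and 32.1% for lgs (9 of 28, 17.9 to 50.7%). The intervals cover counting error only and take sites as independent, although sites of a gene share its reads. Sites seen in a single library had medians of 12.5% on 28 reads for the 72 in replicate 1 and 13.1% on 31.5 reads for the 70 in replicate 2, with maxima of 29.2% and 56.5%. Shared sites had medians of 18.5% and 17.9% on 37 and 35 reads. Over all genes the medians of shared sites were 20% and 18.3%.

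Between the libraries the levels at the 85 shared sites had a Pearson's r of 0.76 and a Spearman's rho of 0.56, given as a description, since the sites lie in 7 genes and passed the same listing minimum. Several sites differed widely. CtBP at 8847930 was at 10.5% (4 of 38 reads) and 36.6% (15 of 41), and at 8848223 at 25.9% (14 of 54) and 50% (23 of 46). At hipk, 575129, the order was the reverse, with 41.4% and 21.2%.

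**Figure D3:**
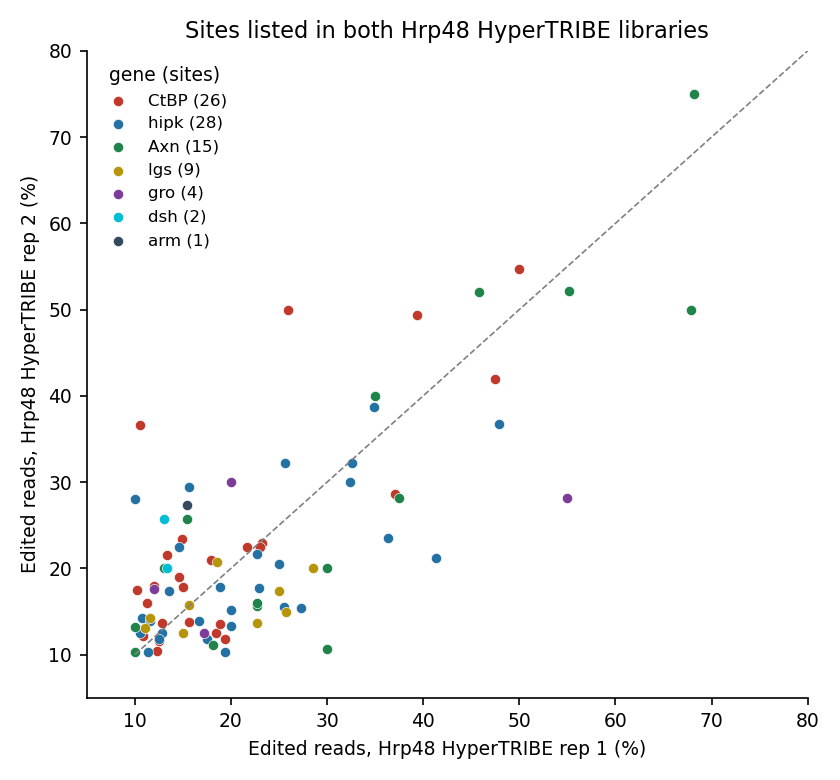
Percent of edited reads in Hrp48 HyperTRIBE replicate 1 (x axis) and replicate 2 (y axis) at the 85 sites of the list that both libraries hold, coloured by gene, with the line of equality dashed. The highest point is the Axn site at 68.2% and 75%, and most points lie below 30% in both libraries.

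Averaged over shared sites, editing with Hrp48 HyperTRIBE was highest for Axn at 30.7% ± 1.96 (SD, n = 2 libraries, 32.1% and 29.3%). It was followed by gro at 24.1% ± 2.82 (26.1% and 22.1%) over 4 sites, CtBP at 21.5% ± 2.09, arm at 21.4% ± 8.47 over 1 site, and hipk at 20.9% ± 1.26. The lowest were dsh at 18.02% ± 6.84 over 2 sites and lgs at 17.6% ± 2.47 over 9. Both Axn values lay above both values of every other gene. From gro to lgs each gene overlapped its neighbour in this order. The means leave out unlisted sites and those under 10%, and pan and sgg, with no shared site, have none.

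Sites of the Wnt genes lay close together. Of the 227, 165 had another site of the same gene within 100 bases (72.7%, against 61.6% of all lines of the same lists, where a site has a line per gene). Directly adjacent adenosines were both listed, in the same library or in different ones, at 24 of the 227 sites (10.6%, against 5.13%). Within replicate 1 they were at 10 of 157 sites (6.37%, against 4.29%). Within replicate 2 they were at 14 of 155 (9.03%, against 4.62%). Axn had such a pair at 25860566 and 25860567, with 35% and 40% at the first and 10% and 10.3% at the second. In CtBP, 8851891 was at 21.7% and 22.5% and the next base, 8851892, at 13.3% and 21.5%. Genes with more sites have closer neighbours by number alone, and this was not separated.

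The comparison of the Hrp48 constructs asked whether the E488Q change raised editing at the same adenosines. A limma test was run on the log2 odds of editing at the 298 sites listed in all 4 Hrp48 libraries. It called 83 sites higher with HyperTRIBE (27.9%) and 0% lower, after Benjamini-Hochberg adjustment at 0.05. Before adjustment 116 higher and 0 lower passed 0.05, and Fisher's exact test on summed reads gave 127 higher and 1 lower. Without either HyperTRIBE library in turn 1 site was called higher, and without TRIBE replicate 1 171 were. None of the 298 sites lies in any of the 10 genes, since no site of theirs was listed in both Hrp48 TRIBE libraries, so the test has nothing to say of them.

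Both HyperTRIBE libraries held 7 sites that 1 of the TRIBE libraries also listed, in CtBP, hipk and Axn. TRIBE replicate 1 listed 2 of them, both in CtBP, and replicate 2 listed 5. Their values are given as a description. An alternative limma fit took all 1395 sites that both HyperTRIBE libraries and at least 1 TRIBE library listed, the 298 included, and called 15.4% higher and 0.0717% lower. Of the 7 it called 2 higher and 0 lower, with a TRIBE arm of 1 library assumed to vary like the rest and in genes chosen on the same contrast, so nothing is read from these calls. Besides the Axn site above, CtBP at 8851739 was at 11.6% with TRIBE (5 of 43 reads, Wilson 95% interval 5.07 to 24.5%) against 50% and 54.7%. The hipk site at 575754 was at 12.8% (5 of 39) against 47.9% and 36.7%. The hipk site at 575129 was at 13.04% (3 of 23) against 41.4% and 21.2%. At these 4 sites, all listed in TRIBE replicate 2, both HyperTRIBE values lay above the TRIBE value. Over all genes both HyperTRIBE values lay above every listed TRIBE value at 73% of the 1395 sites, which include those with a value in both TRIBE libraries.

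The other 3 sites did not show this order. At hipk, 575713, TRIBE replicate 2 stood at 26.5% (9 of 34) between the HyperTRIBE values of 36.4% and 23.5%. CtBP at 8851819 was at 12% (3 of 25) with TRIBE replicate 1 against 19.4% and 11.8%. At CtBP, 8851892, TRIBE replicate 1 was the highest, with 30% (6 of 20, Wilson 95% interval 14.5 to 51.9%) against 13.3% and 21.5%. The genes with a TRIBE site were 4 of the 7 with a shared HyperTRIBE site, namely CtBP, hipk, Axn and lgs, beside 36.1% of all such genes.

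With FMRP in place of Hrp48, 5 of these 7 genes had a site (CtBP, gro, arm, hipk and lgs), beside 49.9% of all genes with a shared Hrp48 HyperTRIBE site. Of the 14 FMRP sites, 8 were in both Hrp48 HyperTRIBE libraries (57.1%, and 47.1% of all 4694 FMRP sites). They made up 9.41% of the 85 shared Hrp48 sites, and over all genes the FMRP library held 20.4% of these. At 6 of the 8 the FMRP value lay below both Hrp48 values, as it did at 60.5% of such sites over all genes.

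CtBP supplied 4 of the 8. At 8851739, FMRP HyperTRIBE edited 15 of 46 reads (32.6%, Wilson 95% interval 20.9 to 47.0%). At 8845834 it edited 16 of 72 (22.2%) against 37.1% and 28.6% with Hrp48 HyperTRIBE, and at 8846633 8 of 78 (10.3%) against 23.3% and 22.97%. Even the intronic site at 8840630 was listed, at 11.1% against 15.6% and 13.8%. At lgs, 458840, the order was reversed, with 20.8% (5 of 24) against 15.6% and 15.8%. Of the 14 FMRP sites, 11 were in at least 1 Hrp48 HyperTRIBE library, beside 69.9% of all FMRP sites. Those in neither were gro at 21872806 (17.2%, 5 of 29) and 21873985 (16.7%, 5 of 30), and hipk at 573170 (10%, 2 of 20). With 1 FMRP library none of these differences could be set against a spread, and its library set in the file headers is not that of either Hrp48 replicate, so the set and the protein cannot be told apart.

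**Figure D4:**
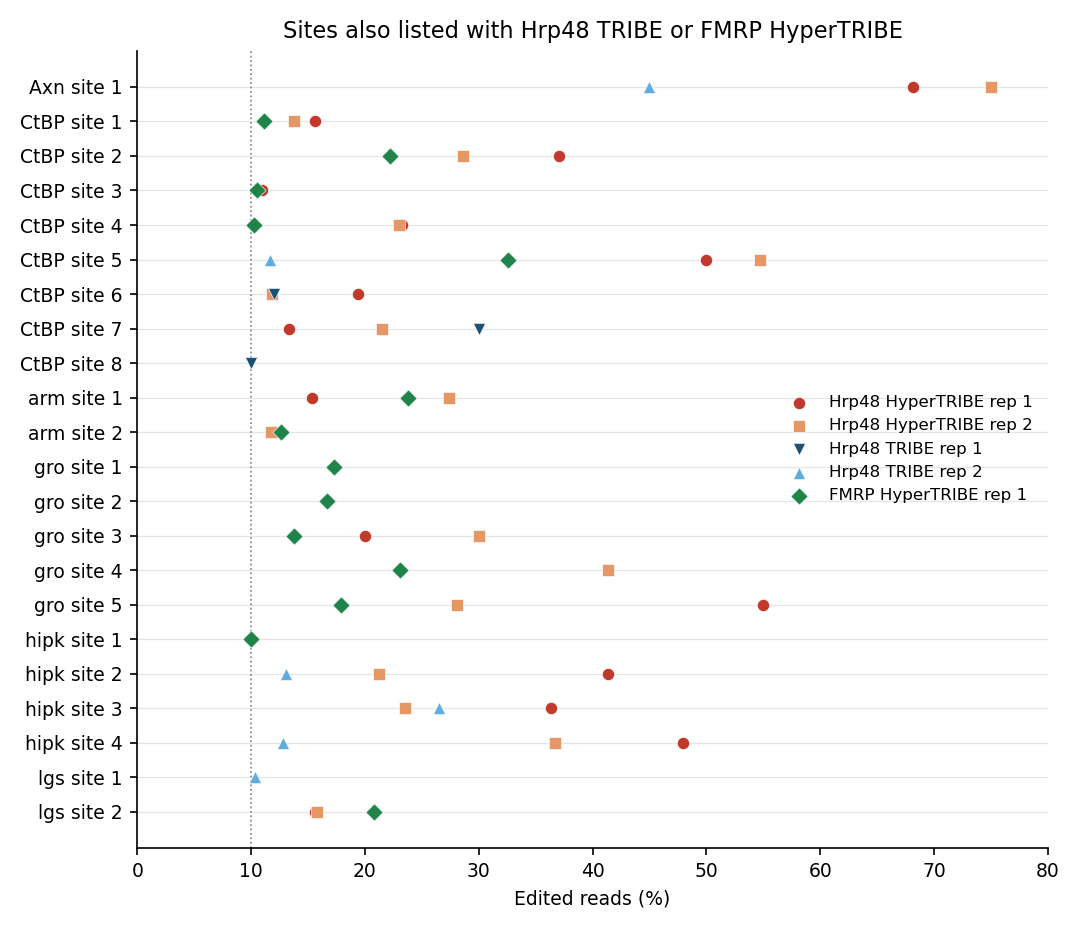
Percent of edited reads (x axis) at the 22 sites of the list that an Hrp48 TRIBE or the FMRP HyperTRIBE library holds (rows, numbered by position within each gene); symbols are libraries, a missing symbol is a site not listed, and the dotted line is the 10% minimum. Among the libraries that list the same site, TRIBE is the lowest at CtBP site 5 (11.6%) and the highest at CtBP site 7 (30%).

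The deaminase alone listed none of the 10 genes, beside 7.89% of genes with a shared Hrp48 HyperTRIBE site. Its libraries listed 13 and 459 sites in all, at median depths of 33 and 27 reads.

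Other genes of the pathway were looked up by name, 53 in all, and 32 had a site. The Hrp48 HyperTRIBE libraries listed 24 and 30 of them, the Hrp48 TRIBE libraries 6 and 10, the deaminase-alone libraries 0 and 4, and the FMRP library 17. Of the 5181 gene names in all lists, the same libraries listed 4036 and 4759, 743 and 911, 14 and 282, and 2003. None of the 7 Wnt ligands and 2 of 9 receptors (fz4 and dnt, with 3 and 4 sites in Hrp48 HyperTRIBE replicate 2) had a site. Of 15 genes of the destruction complex and its phosphatases 13 did. Among them Cul1, the cullin of the SCF ubiquitin ligase, held 25 and 24 Hrp48 HyperTRIBE sites and 5 and 3 Hrp48 TRIBE sites. Apc held 15 and 13, slmb, encoding the F-box protein that recognises phosphorylated Armadillo, 12 and 16, and the casein kinase gene dco 13 and 11. The kinase gene par-1, whose product phosphorylates Dishevelled, had 39 and 37, more than all of the 10 genes but CtBP in replicate 1 and all but CtBP and hipk in replicate 2. The carrier of Wnt ligands, wls, had 10 and 17. Of the 32 genes with a site, 21 had a shared Hrp48 HyperTRIBE site, beside 62.2% of the 5181 genes listed in any library. A gene can be absent for want of reads or of editing, and differences between these groups of genes were not tested.

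The limma test reached 1 site of these 53 genes, in Cul1, which did not pass the test. It was at 36.7% ± 4.71 (SD, n = 2) with Hrp48 TRIBE and 49.9% ± 3.45 with Hrp48 HyperTRIBE, a difference of 0.76 ± 0.58 log2 odds (SE, limma adjusted p = 0.336), higher in both HyperTRIBE libraries than in both TRIBE libraries.

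Genes outside the list with the most similar site numbers were found by the Euclidean distance of log2(sites + 1) over the 7 libraries. For Axn these were Csk (distance 0.12, with 29 and 23 Hrp48 HyperTRIBE sites) and pcs (0.60, 38 and 35). For hipk they were Pak3 (0.82, 35 and 34) and CG31678 (1.10, 32 and 33). Those nearest to CtBP stood farther away, Cul2 at 1.66 (33 and 26) and CG45186 at 1.84 (17 and 28).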

How the data were processed

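Each library came as a list of edited sites. The authors deposited, for each site, whole-number read counts of the 4 bases in the RNA, the edited reads, the total reads, the percent edited, a gene name and an exon or intron mark; a score column in the deposited files, 10 times the percent, was not used. The tools Picard 2.8.2 and TopHat2 2.1.1 and the build dm3 are named, without roles, per the submitters' processing notes. The listing thresholds were not stated there. A second set of base counts in the same deposited files gave the strand. No dm3 sequence or annotation was used.

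Members and gene lists were chosen with earlier results of these data known. The sites named are the 2 highest shared Hrp48 HyperTRIBE sites per gene and the sites listed with other constructs; further sites, the runs of sites and the groupings were picked after their values were seen. Sites were matched by position and strand. Editing with the Hrp48 constructs was compared by limma 3.58.1 (R 4.3.3) on log2((edited + 0.5)/(unedited + 0.5)) over 298 sites in all 4 libraries. On simulated reads at their coverage, it called 84% of 50 sites changed by 2 log2 odds, 14% of 50 changed by 1, and 0% of 198 unchanged. The simulation held no variation between libraries beyond read sampling. Other steps ran in Python 3.11.15 with scipy 1.17.1, numpy 2.4.6 and pandas 2.3.3, and plots were drawn with matplotlib 3.10.9. Wilson intervals cover counting error only. Alternatives are given at the end.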

Additional observations from a re-analysis of the deposited data

How the results depend on the processing

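Numbers of sites rest on the listing minimum. For the Wnt genes the mean per Hrp48 HyperTRIBE library, 156, was 20 with at least 50 reads and 50.5 with at least 20% editing, and for Hrp48 TRIBE the mean of 4.5 became 0 and 1.5. Single libraries gave 155 to 157 and 3 to 6. The ratio between the constructs was 33.7 at 20% editing, an alternative added after seeing the data. The share of sites in both HyperTRIBE libraries, 37.4%, was 48.02% when positions within 10 bases counted. No share over all genes is given for that setting. It was 57.7% among 26 sites with at least 50 reads, where all genes gave 61.5%. The share with a neighbour, 72.7%, was 60.4% within 50 bases, where all lines of the same lists gave 61.6% and 46.9%. Pooling reads over sites, also added later, moved no gene's mean editing by more than its SD.

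The limma test covered no site of the 10 genes under any alternative that kept the 298 sites. Where 1 TRIBE library sufficed it covered 7, and 2 of them were higher, at CtBP and hipk, beside 215 higher (15.4%) and 1 lower (0.0717%) of 1395. A TRIBE arm of 1 library is there assumed to vary like the rest. These genes were chosen on the same contrast, so the calls are a description. Over all genes, 31 of 56 sites were higher with at least 50 reads in every library, and summing reads per construct and testing by Fisher's exact test gave 127 higher and 1 lower. Leaving out 1 library at a time, which assumes that the lone sample of a construct varies like the other construct, gave 1 to 171 sites higher and 0 to 9 lower. Without either HyperTRIBE library 1 site was higher, without TRIBE replicate 1 171 were, and without TRIBE replicate 2 81 were. With the replicate block 83 were higher and 0 lower, and the Wnt genes had 0 tested. The labels do not say that equal numbers share a culture or day, and the differences between replicates correlated at -0.01 between the constructs.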

Other observations

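Of the 9 listings of these genes with Hrp48 TRIBE, 2 were at adenosines that neither Hrp48 HyperTRIBE library listed. At least 1 HyperTRIBE library listed 2 of the 3 sites of TRIBE replicate 1 and 5 of the 6 of replicate 2. Over all genes this held for 74.04% and 85.6% of the TRIBE sites. Each of the 2 adenosines not listed with HyperTRIBE lay 1 base from a HyperTRIBE site. CtBP at 3R, 8851893 was at 10% (2 of 20 reads) in TRIBE replicate 1, and the base before it, 8851892, was listed in that library and in both HyperTRIBE libraries. The lgs site at 4, 458680 was at 10.3% (3 of 29 reads) in TRIBE replicate 2, and 458679 was listed in both HyperTRIBE libraries with 3 of 26 and 5 of 35 reads edited (11.5% and 14.3%). Both TRIBE values lie at or near the listing minimum.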
